A study of Mus musculus with 20 samples.

Results

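Macrophages of the ciliary body were compared with microglia of the unlesioned retina in single CD45+ eye cells of C57BL/6 mice that were 8 weeks old. The cells were taken by the class and compartment in the authors' annotation: 111 wells named macrophages from ciliary body libraries and 119 wells named microglia from control retina libraries, together 230 of 429 annotated wells of 3 compartments. A further 73 ciliary body wells, which the annotation puts in 1 class shared by monocytes, lymphocytes and granulocytes, were left out, and the control retina held 0 wells of that class. The 121 annotated macrophages of the cornea served as a further group. Cells of every group had been stained for CD45, a surface phosphatase of all blood-derived cells, and for CD11b, the integrin chain of myeloid cells, and all CD45+ cells were sorted into plates. No group used here had a transgene, a drug or a laser lesion according to the labels. Transcripts were counted with mCEL-Seq2, in which each sorted cell receives a barcode and each captured messenger RNA a molecular identifier, so that copies made by amplification are counted as 1 molecule. Each group had 4 libraries of 192 wells under 2 name prefixes, P3 and P4 for ciliary body, P1 and P2 for control retina, and P2 and P5 for cornea. The series describes about 6 mice in 3 experiments without assigning libraries to mice, so the p-values below measure the spread between library pairs, which may be technical. Compartment and prefix cannot be told apart for ciliary body and retina.

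Microglia are the macrophages that reside within nervous tissue, retina included. They derive from precursors that enter the nervous system during embryonic life, depend on the colony-stimulating factor 1 receptor, and keep a gene program that includes purine receptors, transforming growth factor beta signalling and the transcription factor Sall1. The ciliary body, the vascularised and pigmented ring behind the iris that secretes aqueous humour and holds the lens muscle, lies outside the nervous tissue and holds macrophages and dendritic cells of the kind found at tissue borders.

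The depth behind the values differed between the groups. The ciliary body macrophages gave 259982 and 386209 transcripts under P3 and P4, and the microglia 64989 and 145628 under P1 and P2. The median well held 5064 transcripts from 2071 genes in the ciliary body and 1596 transcripts from 1071 genes in the retina. Median mitochondrial shares were 9.81% in the ciliary body and 15.1% in the retina, and 6 of 111 and 20 of 119 wells exceeded 25%. Genes that the authors' table leaves out, mitochondrial genes among them, held a median of 30.5% of the transcripts of a ciliary body well. In microglia wells that median was 53.6%. Transcripts of photoreceptors, the light-sensing neurons of the retina, made up a median of 0.040% of a ciliary body well and 0.717% of a microglia well, and reached 1% or more in 1 of 111 and 41 of 119 wells.

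Of 4705 genes tested, 1372 passed an adjusted p of 0.05 between the groups, which is 29.2% of those tested. Ciliary body macrophages were higher for 780 genes (16.6%) and lower for 592 genes (12.6%), and 40.2% had an unadjusted p under 0.05. The sums of the groups did not overlap for 66.2% of the genes, and the median difference over all genes was -0.03 on the log2 scale. The counts rest on scaling each sum by trimmed means (TMM). With scaling to the total alone the median over all genes moved to -0.42, and the calls split into 550 higher and 1043 lower. Without the retina pair P2, the deeper of the pairs of microglia, 788 genes were called, 558 of them higher. DESeq2 called 846 genes, 535 higher and 311 lower. Because the classes were named from the same transcriptomes, a difference in genes that name a class is partly built in. A comparison of all annotated wells of each compartment, joint class included, called 1474 genes, and 1253 of the 1364 genes called above that it could test were called in the same direction. It cannot show what the naming of classes adds. The control retina held 0 wells of the joint class, so the microglia sums were the same, and the 111 macrophage wells stayed in.

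**Figure D1:**
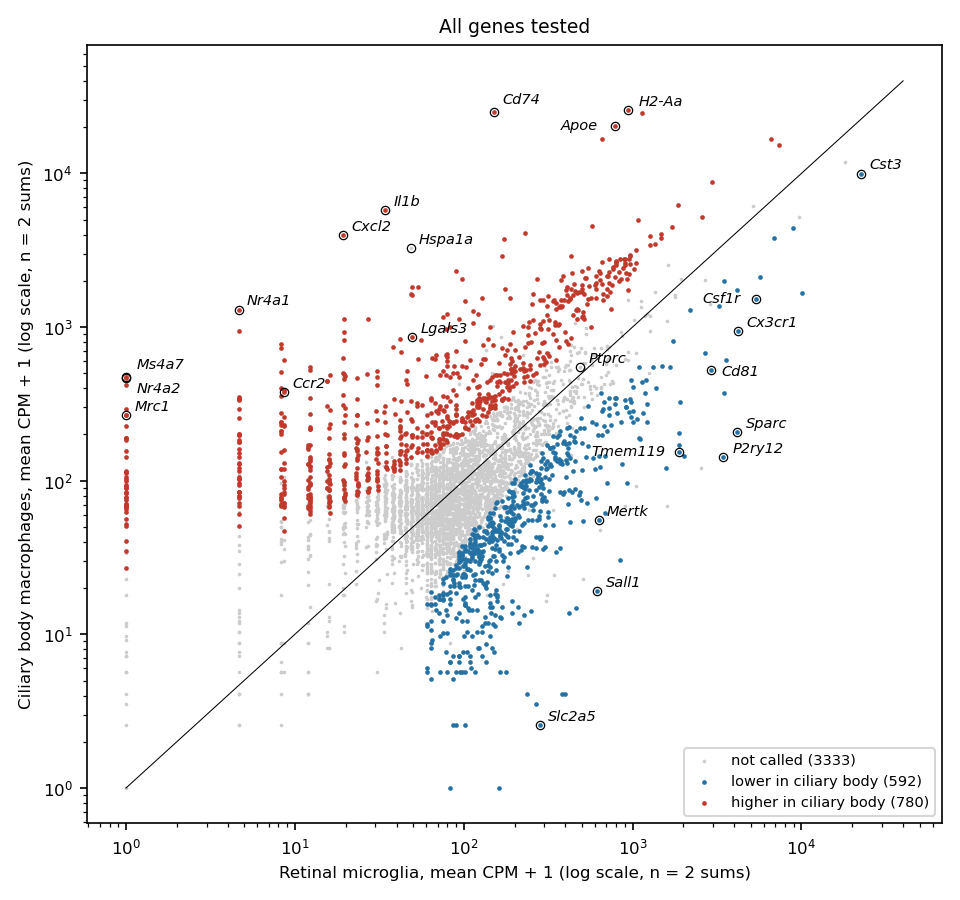
Mean level of each of 4705 tested genes in retinal microglia (horizontal axis) and ciliary body macrophages (vertical axis), as CPM plus 1 on log scales, mean of 2 sums a group. Red points are the 780 genes called higher and blue points the 592 called lower in the ciliary body, grey points were not called and the line marks equal levels. Cd74, H2-Aa, Apoe and Il1b lie far above the line, and P2ry12, Sparc and Sall1 far below it.

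Levels below are CPM, the transcripts of a gene as a share of its sum scaled to a fixed total, after TMM scaling, given for the sums of P3 and P4 in the ciliary body and of P1 and P2 in the retina. Differences are log2 ratios of ciliary body over microglia with their standard error, and adjusted p-values come from edgeR's quasi-likelihood test over all 4705 genes. They are levels per RNA of the sampled wells: less RNA of a gene per cell and fewer cells with that gene cannot be told apart in a sum.

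The genes that define microglia were lower in the ciliary body. Of 25 genes of this list 24 were tested, 22 of them were lower and 0 were higher, with a median difference of -3.22. Over all passing wells of each compartment 14 of 23 tested were lower and 0 higher (median -1.44). Passing wells held at least 1000 transcripts and at most 25% mitochondrial ones, annotated or not. They were 227 of the ciliary body and 135 of the control retina. That setting thus compares compartments and not macrophages with microglia, here and wherever it is cited below. In it 13 of 17 tested photoreceptor genes were lower in the ciliary body (median -6.98), against 7 of 16 within the classes (median -3.78). P2ry12, the ADP receptor through which microglial processes sense injury, stood at 137 and 146 CPM in ciliary body macrophages and 3184 and 3632 CPM in microglia. The groups did not overlap, and the difference was -4.59 ± 0.34 (adjusted p = 5.73e-07). Tmem119, a surface protein used as a microglia marker, had 132 and 174 CPM against 1798 and 1962 CPM, a difference of -3.60 ± 0.31 (adjusted p = 1.34e-06). Sall1, a zinc finger repressor needed for the microglial program, had 5.07 and 31.2 CPM against 579 and 656 CPM (-4.91 ± 0.46, adjusted p = 3.09e-06). The ciliary body values of Sall1 rest on 11 transcripts in all.

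The residual signal of these genes in the ciliary body was spread unevenly over the list. Cx3cr1, the fractalkine receptor of microglia and of many other macrophages, had 918 and 972 CPM against 3657 and 4719 CPM (-2.15 ± 0.31, adjusted p = 9.82e-05). Cx3cr1 was thus well measured in the ciliary body, whereas other genes of the list were nearly absent there. Slc2a5, a fructose transporter, had 1 transcript in the ciliary body against 61 in the retina, a ratio of 156 (95% counting interval 26.9 to 6257). Nav3, Adgrg1 and Sall3 had 2, 2 and 1 transcripts in the ciliary body and 427 and 336, 396 and 394 and 259 and 277 CPM in the retina. Sall3 is a paralog of Sall1, and Adgrg1 an adhesion receptor.

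Among surface genes of the same list, Gpr34, a lysophosphatidylserine receptor, had 167 and 122 CPM against 1783 and 2268 CPM (-3.83 ± 0.34, adjusted p = 1.53e-06). Siglech, a sialic acid binding lectin, had 142 and 262 CPM against 1874 and 1904 CPM (-3.20 ± 0.35, adjusted p = 8.98e-06). Sparc, a secreted matricellular protein, had 152 and 262 CPM against 4357 and 3989.6 CPM (-4.31 ± 0.35, adjusted p = 7.58e-07). For each of these 3 genes both ciliary body sums lay below both microglia sums. Fcrls and P2ry6 were the 2 tested members that did not pass, with 421 and 231 against 396 and 489 CPM and 91.3 and 65.4 against 152 and 146 CPM. Purinergic receptors at large followed the list in part: of 8 tested, 4 were lower (P2ry12, P2ry13, Adora3 and the nucleotidase Entpd1) and 1 was higher, P2ry10, a lysophosphatidylserine receptor, with 223 and 206 against 15.2 and 7.29 CPM.

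Genes that mark macrophages at tissue borders and in connective tissue were higher in the ciliary body where they passed. Of 24 such genes 16 were tested, and 10 were higher and 0 lower, with a median of 4.36 and of 2.70 when genes at 0 in microglia are taken at their bound. Within the ciliary body class, the members Clec10a and Mgl2 lay mostly in wells with dendritic cell genes, described below. Mrc1, the mannose receptor, had 385 and 146 CPM in the ciliary body and 0 transcripts in either microglia sum, so that it was at least 16-fold higher (adjusted p = 8.84e-04). Ms4a7, a membrane protein of tissue macrophages, had 563 and 380.1 CPM against 0 and was at least 30.4-fold higher (adjusted p = 3.15e-06). Wfdc17, a secreted whey acidic protein, had 391 and 196 CPM against 0, at least 18.3-fold higher (adjusted p = 1.03e-04). For Mrc1 and Wfdc17 the P3 sum lay above the P4 sum, and both lay above the retina. Pf4, a platelet-type chemokine of resident macrophages, had 416 and 168 CPM against 1 transcript, a ratio of 53.2 (95% counting interval 9.39 to 2117). Dab2, an endocytic adaptor, had 558 and 374 CPM against 15.2 and 29.2 CPM (4.24 ± 0.48, adjusted p = 1.07e-05).

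The markers of the perivascular subtype were at the edge of detection. Lyve1, the hyaluronan receptor, had 9 transcripts, all under P3, Cd163, the haemoglobin scavenger receptor, had 20, and F13a1, a coagulation factor chain, had 29, each against 0 in microglia. None of these 3 passed the filter on low counts. In the fit without that filter, edgeR's adjusted p was 0.257 for Lyve1, 0.0123 for Cd163 and 0.00209 for F13a1, and 12 of 22 genes of the list were higher and 0 lower. Members not called in that fit included Stab1 (1.20), Ms4a6b (0.62), Ms4a6d (0.07), Cbr2 (-0.13), Siglec1 (-0.21) and Colec12 (-1.83). Apoe, the lipid carrier that border macrophages and activated microglia produce, was abundant: 24964 and 15536 CPM against 625 and 955 CPM, a difference of 4.66 ± 0.38 (adjusted p = 9.45e-07).

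Genes shared by all macrophages set the scale for these differences. Ptprc, which encodes CD45, had 497 and 598 CPM against 503 and 474 CPM (0.17 ± 0.28, adjusted p = 0.683). Aif1 (IBA1) and Adgre1 (F4/80), both common macrophage stains, did not pass either, at 497 and 374 against 503 and 583 CPM and 294 and 274 against 168 and 175 CPM. The sums of the groups overlapped for Ptprc and did not overlap for Aif1 and Adgre1. Csf1r, the receptor that macrophages need to survive, was lower in the ciliary body, at 1664 and 1383 CPM against 5546 and 5229.6 CPM (-1.82 ± 0.29, adjusted p = 2.50e-04). Fcgr1, the high-affinity IgG receptor, was also lower (122 and 153 against 350.4 and 379 CPM, -1.40 ± 0.31, adjusted p = 0.00279), and Itgam, which encodes CD11b, had 284 and 315 against 1097 and 729 CPM (-1.59 ± 0.30, adjusted p = 0.00104). Over all passing wells of each compartment, annotated or not, Itgam stood at 0.35 and was not called.

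**Figure D2:**
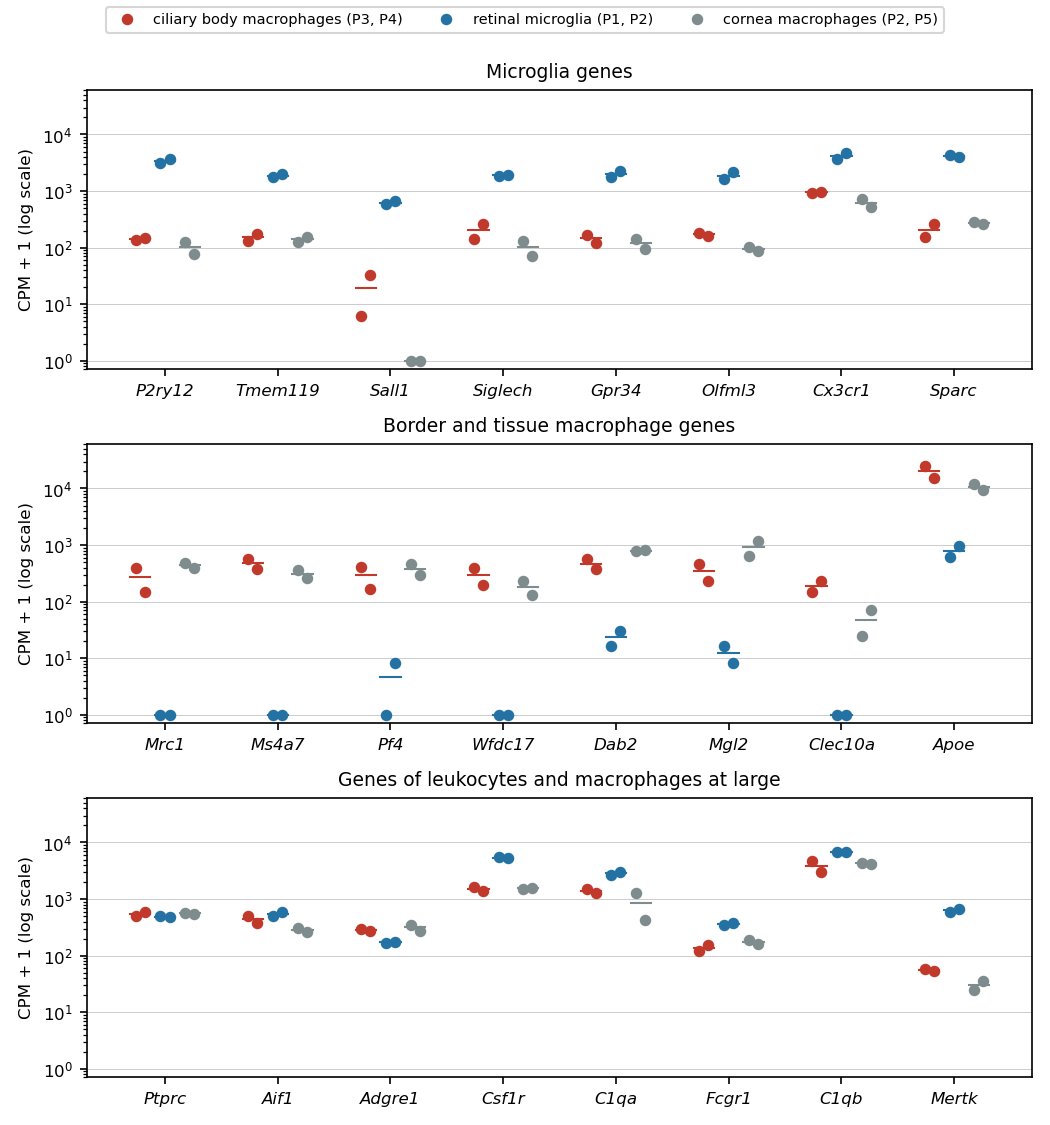
Level of 24 genes in each sum, as CPM plus 1 on a log scale: red, ciliary body macrophages (P3, P4). Blue points are retinal microglia (P1, P2), grey points cornea macrophages (P2, P5), and short lines mark the mean of the 2 sums. The microglia genes of the top panel lie highest in the retina, the border macrophage genes of the middle panel lie lowest there, and Ptprc and Aif1 in the bottom panel lie close together in ciliary body and retina.

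The share of wells with at least 1 transcript showed the same contrast cell by cell. With every well thinned to 1000 transcripts, as the mean over all possible draws, P2ry12 was found in 9.75% of 111 ciliary body wells and 91.2% of 119 microglia wells, and before thinning in 32.4% and 95.8%. Sall1 was found in 1.75% and 44.8% of thinned wells. Mrc1 was found in 16.1% of thinned ciliary body wells, Ms4a7 in 27.6% and Ccr2 in 16.3%, against 0%, 0% and 0.455% in microglia. For Mrc1 and Ms4a7 0 of 119 microglia wells held a transcript. Wells of the same 4 libraries may not be independent draws, so this describes the sampled wells and sets no bound for other cells. A count of 0 concerns wells with a transcript and not cells that express the gene: Ptprc, which encodes the CD45 that all sorted cells carry, was found in 34.8% of the same thinned microglia wells. Cd74 was found in 94.3% of ciliary body wells and in 9.61% of microglia wells. Cd74 was thus detected across nearly the whole ciliary body class, and the border macrophage markers in a smaller share of its wells at this depth.

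**Figure D3:**
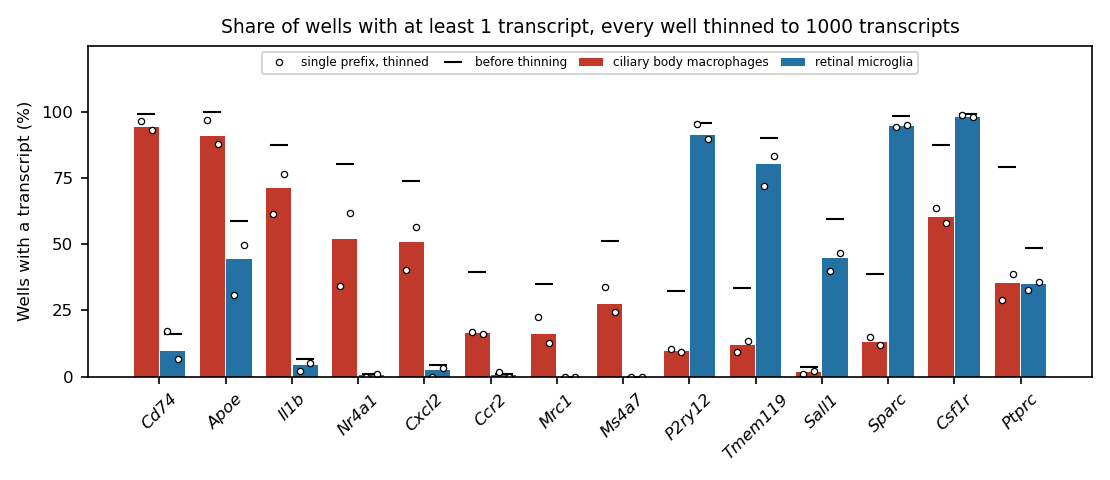
Percent of wells with at least 1 transcript of 14 genes after thinning each well to 1000 transcripts: bars, all 111 ciliary body (red) or 119 microglia (blue) wells. Open circles are single prefixes and black dashes the percentages before thinning. Cd74 reached 94.3% against 9.61%, P2ry12 9.75% against 91.2%, and Ptprc 35.3% against 34.8%.

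MHC class II molecules display peptides to CD4 T cells, and their genes are switched on together by the coactivator Ciita. They were higher in the ciliary body in 10 of 11 tested members of 13, with a median difference of 3.47. Cd74, the invariant chain that guides class II molecules, had 28175 and 21992 CPM against 229 and 72.9 CPM, a difference of 7.51 ± 0.51 (adjusted p = 3.44e-07). The class II chains H2-Aa and H2-Ab1 had 31045 and 20481 against 1158 and 722 CPM (4.79 ± 0.38) and 19213 and 14137 against 975 and 343 CPM (4.70 ± 0.45). H2-Eb1 had 30488 and 18817 against 1539 and 737 CPM (4.46 ± 0.42, adjusted p = 1.98e-06). For these 4 genes the groups were far apart and did not overlap. Ciita had 198 and 143 CPM against 3 transcripts in microglia, a ratio of 11.1 (95% counting interval 3.67 to 54.8). The peptide-loading genes H2-DMa and H2-DMb1 differed less, by 1.43 ± 0.32 and 2.65 ± 0.36, and H2-Ob did not pass (0.98 ± 0.44, adjusted p = 0.108). The costimulatory ligand Cd86 was higher by 1.16 ± 0.32 (adjusted p = 0.0117). MHC class I, which all nucleated cells carry, differed in fewer members: 4 of 10 tested members of its list were higher and B2m, its light chain, had 5944 and 6307 against 5515 and 4748 CPM (0.26 ± 0.28, adjusted p = 0.534). H2-Q6 and its relatives are near-identical copies, so that their single values are uncertain, and without retina P2 1 of the 10 was called.

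Class II promoters carry a set of conserved boxes, among them the Y box, whose class II form is CTGATTGG and which binds the factor NF-Y. Promoter windows of 250 bases before to 50 after the start, from RefSeq (GRCm38.p6), were at hand for 8 genes of the class II list. The letters, searched on both strands, occurred in 3 of these, H2-Aa, H2-Eb1 and H2-Oa. They occurred in 4.70% of the 27025 genes with a window and in 6.19% of the 3492 tested genes with one. The box was among 9 motifs searched. The 120 bases before the start of H2-Aa (chr17:34287824-34287943, minus strand) and of H2-Eb1 (chr17:34305747-34305866, plus strand) are shown because these genes were among the most abundant in the ciliary body. Capitals mark the Y box.
H2-Aa: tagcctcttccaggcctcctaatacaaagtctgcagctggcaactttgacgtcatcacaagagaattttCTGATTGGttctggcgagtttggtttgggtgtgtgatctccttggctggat
H2-Eb1: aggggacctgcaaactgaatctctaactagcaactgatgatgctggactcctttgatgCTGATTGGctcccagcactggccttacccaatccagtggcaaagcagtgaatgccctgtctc
The box starts 51 bases before the start of H2-Aa and 62 bases before that of H2-Eb1. A match is a description of the letters only.

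Immediate early genes, which cells transcribe within minutes of a stimulus, were higher in the ciliary body. Of 21 genes of this list 20 were tested, and 17 were higher and 1 lower, with a median difference of 3.30. Nr4a1, an orphan nuclear receptor, had 822 and 1776 CPM against 1 transcript in microglia, a ratio of 286 (95% counting interval 51.3 to 11329). Its paralog Nr4a2 had 254 and 673 CPM against 0 and was at least 34.7-fold higher (adjusted p = 2.83e-04). Fosb, a chain of the AP-1 factor, had 710.1 and 1137 CPM against 15.2 and 21.9 CPM (5.56 ± 0.55, adjusted p = 2.99e-06). In these 3 genes P4 lay above P3, and both lay above the retina. Egr1 had 933 and 2016 against 91.4 and 109 CPM (3.85 ± 0.47, adjusted p = 2.87e-05) and Fos 903 and 2056 against 305 and 365 CPM (2.13 ± 0.41, adjusted p = 0.00113). Microglia did carry some members of the list: Jun stood at 762 and 1123 CPM there against 1029.6 and 1951 CPM in the ciliary body (0.65 ± 0.34, adjusted p = 0.17), and Dusp6, an ERK phosphatase, was the 1 lower gene, at 65.9 and 81 against 411 and 576 CPM (-2.76 ± 0.34, adjusted p = 2.21e-05).

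Interleukin 1, tumour necrosis factor and the feedback inhibitors of NF-kB were higher in the ciliary body. All 20 tested members of 23 passed in that direction, with a median difference of 3.39. The count was 16 of 20 with DESeq2 and with scaling to the total alone, and 13 of 17 after thinning all sums to the smallest. Il1b, the secreted form of interleukin 1, had 5346 and 6232 CPM against 15.2 and 51.1 CPM (7.25 ± 0.45, adjusted p = 2.01e-07), and was found in 71.2% of thinned ciliary body wells and 4.42% of thinned microglia wells. Tnf had 1339 and 1919 CPM against 15.2 and 80.2 CPM (4.86 ± 0.48, adjusted p = 3.15e-06). Nfkbia, the inhibitor that NF-kB itself induces, had 3469 and 4764 CPM against 152 and 306 CPM (4.10 ± 0.38, adjusted p = 1.85e-06). The smallest differences of the list were those of the subunit Nfkb1 (1.11 ± 0.33), the receptor Tlr2 (1.28 ± 0.35) and the subunit Rela (1.31 ± 0.44). Cd83, a surface protein of activated antigen-presenting cells, had 2536 and 3303 against 137 and 197 CPM (4.09 ± 0.35, adjusted p = 1.34e-06). Heat shock genes were higher in 7 of 15 tested members, and in 11 of 15 without ciliary body P3. Hspa1a itself did not pass, with 1258 and 5257 CPM against 0 and 94.8 CPM (5.78 ± 1.37, adjusted p = 0.0506), and its P4 sum lay well above its P3 sum. It was called in 8 of 20 alternative settings, DESeq2 among them, and edgeR's and DESeq2's adjusted p ranged from 0.000139 to 0.239 over the 20. In cornea macrophages the summed levels of the immediate early list were 20312 and 31136 CPM, against 16124 and 25850 CPM in the ciliary body and 3900 and 5040 CPM in the retina. The interleukin 1 and NF-kB list had 20389 and 22026 CPM in the cornea, 21880 and 27489 CPM in the ciliary body and 1767 and 2429 CPM in the retina. Heat shock genes had 11846 and 15647, 9216 and 16785, and 2819 and 3866 CPM in the same order. The labels do not give times or temperatures of tissue dissociation for either compartment, and whether handling has a part in these 3 lists was not tested.

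Chemokines, the attractants of leukocytes, were higher in 6 of 13 tested genes and lower in 2, and the lower calls did not hold in many settings. Cxcl2, which attracts neutrophils, had 3358 and 4562 CPM against 0 and 36.5 CPM (7.38 ± 0.56, adjusted p = 7.19e-07). Ccl4 and Ccl3, which attract monocytes and lymphocytes, had 3129 and 4399.7 against 213 and 131 CPM (4.51 ± 0.38) and 1618 and 2496 against 259 and 284 CPM (2.91 ± 0.34). For all 3 chemokines both ciliary body sums lay above both microglia sums. Ccl5 and Ccl6 were lower in the ciliary body, with differences of -2.58 ± 0.79 (adjusted p = 0.0235) and -1.18 ± 0.36 (adjusted p = 0.0203). The list had 0 lower genes with DESeq2, over all annotated or all passing wells of each compartment, without ciliary body P3, without retina P1 and without the wells that held photoreceptor transcripts, and 1 without ciliary body P4 or without retina P2. Ccl5 stood at 3.49 and Ccl6 at 1.25 over all passing wells, neither of them called. Among the receptors, 4 of 7 tested were higher and 3 lower. Ccr2, the receptor that brings monocytes into tissue, had 421 and 330.3 CPM against 1 transcript, a ratio of 74 (95% counting interval 13.1 to 2936). Cxcr4 had 193 and 514 CPM against 2 transcripts, a ratio of 39.7 (95% counting interval 10.9 to 330.2). Cx3cr1 and Cmklr1 were lower.

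The kappa B site is the DNA element bound by NF-kB dimers. A form of it, GGG, any 2 bases and TTTCC, searched on both strands, occurred in the windows of 6 of 16 genes of the interleukin 1 and NF-kB list (Il1rn, Il6, Nfkb2, Nfkbia, Rel and Tnfaip3), of 3 of 12 chemokine genes (Ccl9, Cxcl1 and Cxcl2) and of 0 of 15 microglia identity genes. It occurred in 1.89% of all 27025 genes with a window and in 2.35% of the 3492 tested genes with one. A related form, GGGA, any 2 bases and TTCC, which overlaps the first in some sites, occurred in 3, 3 and 1 of the same lists, the last in P2ry12. These were among 9 motifs searched, and the forms shown were picked after the matches were known. The 120 bases before the start of Cxcl2 (chr5:90903779-90903898, plus strand) and Nfkbia (chr12:55492648-55492767, minus strand) are shown because both genes were abundant in the ciliary body and scarce in microglia, and capitals mark the matches.
Cxcl2: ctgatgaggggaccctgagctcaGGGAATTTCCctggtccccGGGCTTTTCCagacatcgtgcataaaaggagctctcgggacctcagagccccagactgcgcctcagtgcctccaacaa
Nfkbia: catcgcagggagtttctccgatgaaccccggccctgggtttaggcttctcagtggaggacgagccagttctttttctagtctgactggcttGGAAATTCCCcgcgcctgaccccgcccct
Cxcl2 holds 2 matches, which start 97 and 78 bases before its start, and Nfkbia holds 1, on the other strand, 29 bases before its start.

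Growth factor and cytokine receptors that passed were mostly lower, but 12 of 18 tested did not pass. Over all passing wells of each compartment the direction was the other way. Of 18 tested growth factor and cytokine receptors 5 were lower and 1 higher, and over all passing wells 0 were lower and 9 higher (median 1.26). Beside Csf1r, these were Csf3r, the receptor of granulocyte growth factor (147 and 96.6 against 579 and 700.2 CPM, -2.44 ± 0.43, adjusted p = 9.16e-04), Il6ra (-1.33 ± 0.32), Il6st (-2.36 ± 0.32) and Il21r (-1.61 ± 0.51). Il1r2, the decoy receptor of interleukin 1, was the 1 higher gene, at 325 and 252 against 30.5 and 0 CPM (4.83 ± 0.74, adjusted p = 1.87e-04). The pathway of transforming growth factor beta, a cytokine that keeps microglia in their resting program, differed at its receptors. Tgfbr1 had 588 and 523 against 1249 and 1729 CPM (-1.43 ± 0.33, adjusted p = 0.00364) and Tgfbr2 269 and 181 against 686 and 664 CPM (-1.60 ± 0.30, adjusted p = 9.89e-04), though Tgfbr2 stood at 0.02 and was not called over all passing wells of each compartment. Of the rest of the list, Smad3 and Bmp2k were lower, while the repressors Tgif1 (2.56 ± 0.37) and Skil (1.68 ± 0.31) and Nrros, which anchors the latent cytokine on myeloid cells (1.31 ± 0.31), were higher. The list had 3 genes higher and 4 lower of 12 tested, 5 higher and 0 lower of 16 over all passing wells, and 3 higher and 2 lower of 14 without retina P2. The ligand Tgfb1 did not pass (0.48 ± 0.42, adjusted p = 0.427).

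Transcription factors of myeloid cells split evenly, 8 higher and 8 lower of 22 tested, and into 4 higher and 11 lower with scaling to the total alone. Maf, a factor of differentiated macrophages, was lower in the ciliary body, at 370.3 and 305 against 975 and 941 CPM (-1.51 ± 0.32, adjusted p = 0.00216). Over all passing wells of each compartment, annotated or not, Maf lost its call and stood at 0.25. Mef2a (-1.25 ± 0.30), Cebpa (-1.51 ± 0.35), Ikzf1 (-1.79 ± 0.30) and Bhlhe41 (-3.81 ± 0.66) were lower as well. On the other side stood Id2, an inhibitor of helix-loop-helix factors that dendritic cells and lymphocytes use, at 771 and 542 against 60.9 and 94.8 CPM (2.99 ± 0.37, adjusted p = 2.98e-05), and Bhlhe40 at 375 and 464 against 30.5 and 29.2 CPM (3.83 ± 0.43, adjusted p = 1.09e-05). The related factors Bhlhe40 and Bhlhe41 thus differed in opposite directions. Klf4, Klf6, Cebpb and Irf7 were higher too. Spi1, which encodes the myeloid master factor PU.1, was higher by 0.97 ± 0.35 with an adjusted p of 0.0469, a call that 11 of the alternative settings did not keep.

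Complement, the plasma cascade that tags targets for uptake, was lower at C1qb and C1qc of its first component over the whole class. Its list had 3 genes higher and 4 lower of 10 tested, and 5 higher and 0 lower of 11 over all passing wells of each compartment. C1qc had 2140.4 and 2078 against 5820.1 and 5565 CPM (-1.43 ± 0.28, adjusted p = 0.00132) and C1qb 4621 and 3019 against 6871 and 6812 CPM (-0.84 ± 0.30, adjusted p = 0.0456), while C1qa did not pass (1506 and 1299 against 2682 and 3034 CPM, -1.03 ± 0.40, adjusted p = 0.0701). The 3 chains are made from neighbouring genes, and each was well detected in both groups. Within the ciliary body class C1qb was uneven over the authors' clusters, described below. Without TMM scaling it had 2031 and 517 CPM for P3 and P4 in clusters 1 and 3. The other ciliary body wells had 5739 and 4466 CPM of it, and the microglia clusters 13, 14 and 15 had 6713, 6865 and 6015 CPM. Cfp, which encodes properdin, an activator of the cascade, had 142 and 140.2 CPM against 2 transcripts, a ratio of 14.3 (95% counting interval 3.81 to 120.2). Itgax, the complement receptor chain CD11c, had 213 and 239.9 CPM against 1 transcript, a ratio of 46.6 (95% counting interval 8.2 to 1855).

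Receptors for dying cells differed by member. Of 15 tested, 6 were lower and 2 higher, and over all passing wells 3 were lower and 6 higher of 16. Mertk, a receptor kinase for phosphatidylserine-bound ligands, had 55.8 and 53 CPM against 594 and 664 CPM (-3.55 ± 0.33, adjusted p = 1.85e-06), whereas its relative Axl had 639 and 592 CPM against 60.9 and 197 CPM (2.10 ± 0.38, adjusted p = 7.42e-04). The pair of receptors thus went opposite ways, and for each the groups did not overlap. Their ligand Pros1 was lower (-2.59 ± 0.40, adjusted p = 1.87e-04) and Gas6 did not pass (-0.20 ± 0.39, adjusted p = 0.733). Trem2, a lipid receptor of microglia, had 208 and 165 against 1234 and 985 CPM (-2.57 ± 0.30, adjusted p = 1.49e-05), while its adaptor Tyrobp did not pass (1440.4 and 1274 against 1021 and 1211 CPM, adjusted p = 0.494). Cd36, a scavenger receptor for oxidised lipids, had 218 and 178 CPM against 1 transcript, a ratio of 39.1 (95% counting interval 6.86 to 1561).

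Lysosomal genes were lower where they passed within the class, with 1 exception. Of 26 tested, 10 were lower and 1 higher, the cytosolic inhibitor Cstb (1.81 ± 0.37, adjusted p = 0.00183). The aspartic protease Ctsd had 543 and 679 against 4053 and 3093 CPM (-2.54 ± 0.30, adjusted p = 1.86e-05), the asparagine protease Lgmn 619 and 726 against 2682 and 2699 CPM (-2.0 ± 0.29, adjusted p = 1.04e-04) and Ctsl 238 and 327 against 838 and 1174 CPM (-1.83 ± 0.30, adjusted p = 3.67e-04). Without retina P2 the lower count was 5, and over all passing wells of each compartment 3 were lower and 6 higher of 27 (median 0.67). In iron handling, both ferritin chains were higher, Fth1 by 1.40 ± 0.29 (adjusted p = 0.00189) and Ftl1 by 2.25 ± 0.39 (adjusted p = 4.60e-04), and Slc40a1, the iron exporter ferroportin, had 3 transcripts against 137 and 131 CPM, a ratio of 23 (95% counting interval 7.08 to 118) in favour of microglia. Among lipid genes Apoe, the droplet protein Plin2 and Ch25h were higher, and Abca9 was lower (-2.57 ± 0.45, adjusted p = 5.24e-04).

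Of 20 tested adhesion genes 8 were higher and 8 lower. The tetraspanins Cd9 and Cd81, which sit beside integrins, were lower, at 294 and 352 against 1722 and 2093 CPM (-2.56 ± 0.29, adjusted p = 1.31e-05) and 512 and 533 against 2712 and 3107 CPM (-2.48 ± 0.30, adjusted p = 1.86e-05). Selplg, the ligand of P-selectin, was lower (391 and 349 against 3352 and 3625 CPM, -3.24 ± 0.30, adjusted p = 1.85e-06). Itgal, the leukocyte integrin chain CD11a, had 65.9 and 99.7 CPM against 0, at least 5.87-fold higher (adjusted p = 0.00324), and Cd44, a hyaluronan receptor, was higher by 3.69 ± 0.50 (adjusted p = 6.26e-05). Of 23 tested genes for S100 proteins, annexins, galectins and the cytoskeleton, 19 were higher and 1, Anxa3, was lower. Vim, the intermediate filament vimentin, had 1719 and 1499 against 60.9 and 36.5 CPM (5.15 ± 0.41, adjusted p = 7.58e-07), Lgals3, galectin 3, 786 and 938 against 60.9 and 36.5 CPM (4.26 ± 0.42, adjusted p = 3.15e-06), and Actb, cytoplasmic actin, 13578 and 17050.3 against 7892 and 6812 CPM (1.06 ± 0.29, adjusted p = 0.0116).

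Of 14 tested matrix and protease genes 7 were higher and 2 lower. The summed level of the list was lower in the ciliary body, at 2500 and 2396 CPM against 5515 and 5062 CPM in microglia. Of its 31 genes with counts, tested or not, 14 had 0 transcripts in microglia. In a fit of the ciliary body and retina sums alone, 5 of 10 tested were higher and 2 lower. Mmp12, the macrophage elastase, had 289 and 393 CPM against 1 transcript, a ratio of 71.6 (95% counting interval 12.7 to 2844). Interferon-induced genes were higher in 8 of 18 tested, among them Irf1 (2.80 ± 0.35, adjusted p = 2.97e-05) and Ifitm3 (2.90 ± 0.37, adjusted p = 3.64e-05), and in 4 of 18 with DESeq2. Cell cycle genes were higher in 8 of 11 tested and in 2 of 6 after thinning all sums to the smallest, and in 2 of 19 without retina P2. Mki67, a nuclear protein of dividing cells, had 167 and 218 against 45.7 and 51.1 CPM (1.99 ± 0.53, adjusted p = 0.0103), and was found in 9.08% and 3.4% of thinned wells. Of the genes of energy metabolism, 1 of 12 tested glycolysis genes was higher and 1 lower, and 7 of 29 nuclear genes of oxidative phosphorylation were higher, of which DESeq2 called 1. Without retina P2 0 of these 29 were called, and over all passing wells 1 was higher and 4 were lower. Ldhb, a lactate dehydrogenase chain that photoreceptors and neurons also carry, was the lower glycolysis gene (-2.90 ± 0.50, adjusted p = 5.24e-04).

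**Figure D4:**
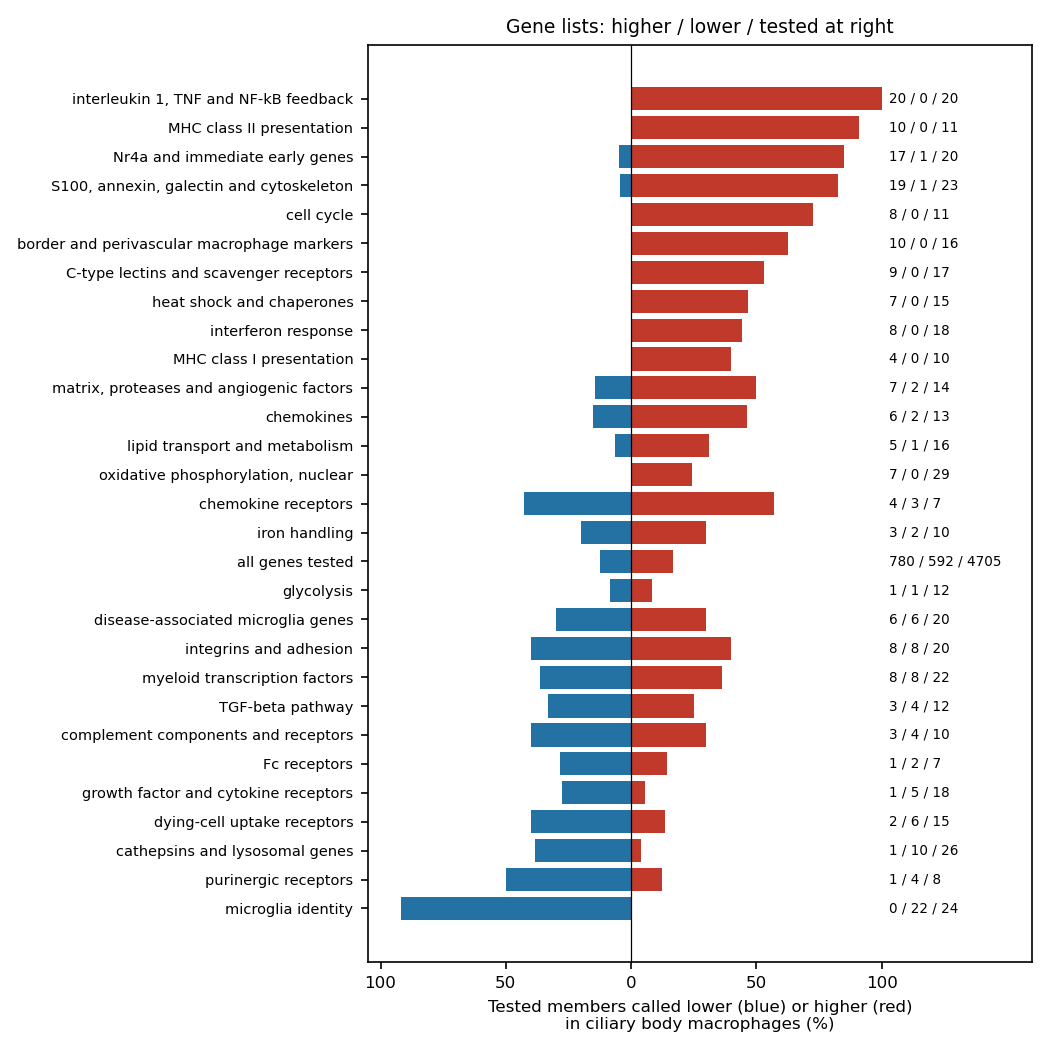
Percent of tested members of each gene list that were called higher (red, right) or lower (blue, left) in ciliary body macrophages than in microglia, with the counts higher, lower and tested at the right. The row of all genes tested gives the share over 4705 genes. The interleukin 1 and NF-kB list has 20 of 20 members higher and the microglia list 22 of 24 lower.

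The genes of the list known from microglia around plaques and in degeneration did not move as a unit: of 20 tested, 6 were higher and 6 lower. Apoe, Axl, Cd52, Itgax, Lgals3 and Ch25h were higher in the ciliary body, and Cd9, Ctsd, Ctsl, Timp2, Trem2 and Ccl6 were lower. Clec7a, a glucan receptor, had 335 and 289.8 against 335 and 263 CPM (adjusted p = 0.867).

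The 12 genes with the largest rises by edgeR's fitted value, taken from genes that passed, reached 50 CPM and had separate sums, were Ms4a7, Nr4a2, Wfdc17, Tnip3, Ccl22, Mrc1, Adgre5, Il2ra, Clec10a, Gpr132, Qpct and Nr4a1, and 11 of them had 0 transcripts in microglia. The fitted value adds a small prior count, and for genes at 0 the rank rests on it. Their bounds do not place them above genes that were measured in both groups. Tnip3, an inhibitor of NF-kB activation, was at least 28.3-fold higher, at 406 and 427 CPM. Ccl22, a chemokine of mature dendritic cells, was at least 18.9-fold higher, and Il2ra, a chain of the interleukin 2 receptor, at least 13.2-fold. The 12 largest falls were Slc2a5, Sall3, Adgrg1, Nav3, Ecscr, Nrl, Jam2, Crx, B130006D01Rik, Gm38071, Serpine2 and Lrrc17. Ecscr had 0 transcripts in the ciliary body and 168 and 153 CPM in microglia, at least 27.3-fold lower. Serpine2, a protease inhibitor, had 15.2 and 12.5 against 533 and 387 CPM (-5.06 ± 0.46, adjusted p = 1.85e-06) and Lrrc17 40.6 and 18.7 against 701 and 992 CPM (-4.96 ± 0.40, adjusted p = 7.58e-07). Nrl and Crx encode transcription factors of photoreceptors and had 91.4 and 72.9 and 76.2 and 124 CPM in microglia.

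Photoreceptor transcripts moved with the comparison. The summed level of 19 photoreceptor genes was 365 and 1334 CPM in the ciliary body and 6887 and 12531 CPM in microglia, 7 of 16 tested genes were lower in the ciliary body (1 of 14 without retina P2), and 3 of 19 were at 0 there. Without the wells that held 1% or more of such transcripts, 1262 genes were called and 1147 of the 1324 genes of the first count that could still be tested kept their call and direction. The falls of Nrl and Crx belong to this group, and the part of these transcripts in other falls was not tested.

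The macrophages of the cornea, the transparent front of the eye, were compared with those of the ciliary body in the same fit. Between ciliary body and cornea macrophages 167 genes passed, 3.55% of the 4705, of which 50 (1.06%) were higher and 117 (2.49%) lower in the ciliary body, and the count ran from 109 (without ciliary body P3) to 357 (without retina P1) when single sums were left out. Of the 1372 genes called between ciliary body and retina, 54 (3.94%) were also called between ciliary body and cornea, and both comparisons use the same ciliary body sums. Mrc1, Ms4a7, Ccr2, Cd74, Il1b and Nr4a1 were not among them. Their cornea levels were 482 and 398, 357 and 263, 452 and 427, 13049 and 18555, 4066 and 3956 and 899 and 1194 CPM. Genes that did differ included Tmsb10, an actin-binding peptide, with 786 and 555 CPM in the ciliary body, 167 and 123 CPM in the cornea and 76.2 and 80.2 CPM in microglia (ciliary body over cornea 2.21 ± 0.31, adjusted p = 6.48e-04). Mmp13, a collagenase, was lower in the ciliary body than in the cornea (-2.52 ± 0.33, adjusted p = 6.17e-04), at 60.9 and 71.7 and 399 and 369 CPM. Clec10a, a galactose lectin, and Vcam1, an adhesion molecule, were higher than in the cornea by 2.01 ± 0.49 (adjusted p = 0.038) and 2.67 ± 0.63 (adjusted p = 0.0288), and Mgl2, a paralog of Clec10a, was lower (-1.43 ± 0.37, adjusted p = 0.0452). Reads may be shared between these paralogs, so their single values are uncertain. Ctsd was lowest in the cornea, at 208 and 181 CPM in the cornea, 543 and 679 CPM in the ciliary body and 4053 and 3093 CPM in the retina (ciliary body over cornea 1.65 ± 0.32, adjusted p = 0.00724).

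The name macrophage covered unlike cells in the ciliary body. The authors' clusters 1 and 3 held 48 of the 111 wells, 18 under P3 and 30 under P4, and the other clusters 63. Clusters 1 and 3 gave 157101 transcripts under P3 and 191546 under P4, and the other clusters 102630 and 194337. The sums tested above weigh the sets by transcripts, so clusters 1 and 3 count for more in them than by wells. The values that follow describe clusters that were formed on these same transcripts, carry no test, and are CPM of the wells of each set without TMM scaling. Genes of dendritic cells, the antigen-presenting cells that travel to lymph nodes, stood at 2801 and 3091 CPM in all for P3 and P4 in clusters 1 and 3, and at 214 and 262 CPM in the other clusters. Cd209a, a lectin of monocyte-derived and conventional dendritic cells, had 484 and 632 CPM in clusters 1 and 3 and 9.74 and 15.4 CPM in the others. Flt3, the growth factor receptor of dendritic cells, had 178 and 188 CPM against 0 and 5.15 CPM, and Ccr7, which guides them to lymph nodes, 76.4 and 538 CPM against 0 and 5.15 CPM. Ccr2 lay likewise mostly in clusters 1 and 3 (458 and 486 against 107 and 66.9 CPM).

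Macrophage genes had the reverse pattern among the same wells. Csf1r had 388 and 308 CPM in clusters 1 and 3 and 2592 and 1976 CPM in the others, Apoe 4908 and 1749 against 40427 and 23922 CPM, and C1qa 407 and 151 against 2261 and 1991 CPM. Ms4a7 had 76.4 and 31.3 against 965 and 597 CPM. The border macrophage list summed to 1922 and 1926 against 5681 and 3139 CPM, but its members did not all go 1 way. Mrc1, Pf4 and Dab2 were higher outside clusters 1 and 3. Mgl2 was higher within them, at 541 and 308 against 48.7 and 77.2 CPM, as was Clec10a, at 172 and 371 against 19.5 and 10.3 CPM. Mertk had 0 in clusters 1 and 3 and 107 and 87.5 CPM in the others. The levels of Csf1r, C1qa, C1qb and Maf over the whole class, which were below those of microglia, are thus averages over sets with unlike levels. Microglia genes were low in both sets: P2ry12 had 38.2 and 31.3 against 205 and 211 CPM and Sall1 0 and 0 against 9.74 and 51.5 CPM. Il1b was at like levels in both, 4067 and 6046 against 4044 and 4312 CPM, and Cd74 was abundant in both (25340.4 and 21227 against 15337 and 15401 CPM), while Cxcl2 was found mostly outside clusters 1 and 3 (267 and 412 against 6041 and 7117 CPM).

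The single clusters differed further. Cluster 1 held 150.3 CPM of Clec9a, a receptor of cross-presenting dendritic cells, and cluster 3 held 663 CPM of Ccr7 and 675 CPM of Ccl22. Cluster 10 had 10154 CPM of Cxcl2 and 10052 CPM of Hspa1a, the highest of the 5 clusters with at least 17 wells. Cluster 8 had 1430.3 CPM of the mast cell tryptase Tpsb2, against at most 20.0 CPM in clusters 1, 3, 7 and 10. Microglia fell into clusters 13, 14 and 15, of 32, 53 and 34 wells. P2ry12 stood at 3176, 3552 and 3241 CPM in these, Axl at 67.5, 156 and 212 CPM, Cd74 at 67.5, 189 and 65.1 CPM, and H2-Aa at 1182, 768 and 586 CPM. The median share of mitochondrial transcripts was 13.5%, 15.0% and 20.6% of a well. Median shares of photoreceptor transcripts were 0.703%, 0.613% and 0.941% of a well in these clusters.

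**Figure D5:**
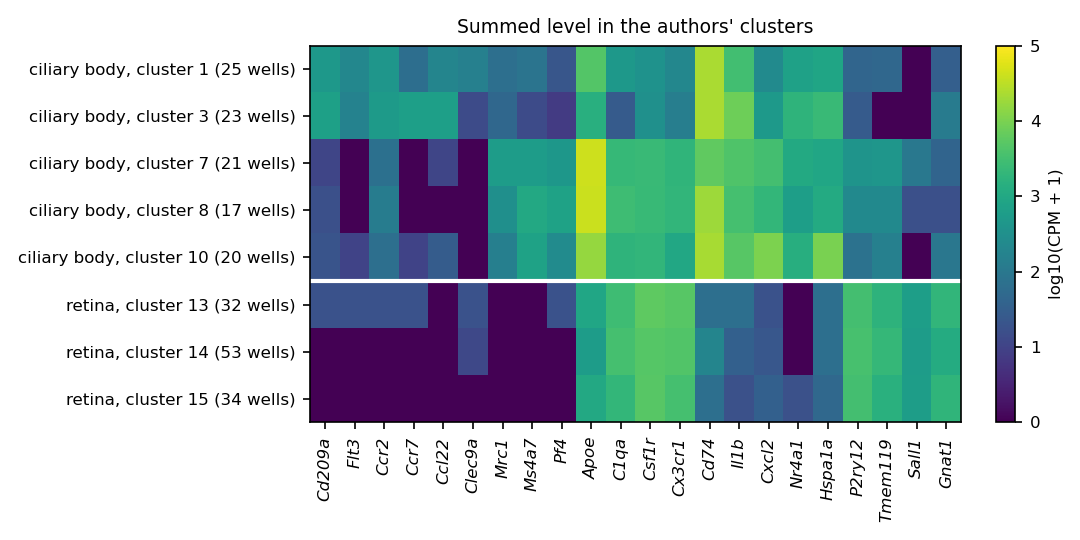
Level of 22 genes in the authors' clusters, as log10 of CPM plus 1 over all wells of a cluster: 5 clusters of ciliary body macrophages above the white line and 3 clusters of retinal microglia below it. Cd209a, Flt3 and Ccr7 are high in ciliary body clusters 1 and 3, Ms4a7, Pf4, Apoe and Csf1r in clusters 7, 8 and 10, and P2ry12, Tmem119 and Sall1 in the retina.

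Markers of other cell types were examined beside the labels. For dendritic cells 7 of 10 tested genes were higher in the ciliary body and 1, Fscn1, was lower (20.3 and 6.23 against 244 and 255 CPM). The list summed to 2343 and 2004 CPM against 442 and 620 CPM. Monocyte genes summed to 928 and 879 CPM against 91.4 and 87.5 CPM, with Ccr2 and Ms4a4c called of 5 tested. Mast cell genes reached 162 and 1006 CPM against 15.2 and 58.3 CPM, and pigment and ciliary epithelium genes 117 and 1817 CPM against 381 and 489 CPM. Within the ciliary body both lists were thus far more abundant under P4 than under P3. Kit was called of the mast cell list, and Ttr was lower in the pigment list. Of the T, NK and innate lymphoid list 2 of 4 tested genes were higher, Klrd1, with 75 transcripts against 1, a ratio of 29.3 (95% counting interval 5.11 to 1174), and Cd4, with 122 and 81 CPM against 0. Of the neutrophil list Csf3r was lower of 2 tested, and Hba-a1, a haemoglobin chain and the only red blood cell gene tested, was lower (5.07 and 9.35 against 213 and 80.2 CPM). The Mueller glia list had 2 of 6 tested genes higher, Hes1 and Apoe, which macrophages also express, and Glul lower.

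Other lists could show little. Of 7 epithelial genes tested 0 were called, but the list reached 81.2 and 1845 CPM in the ciliary body and 0 and 1313 CPM in microglia, nearly all of it under ciliary body P4 and retina P2. Krt12, a keratin of the corneal epithelium, had 0 and 1352 against 0 and 941 CPM. The B cell list had 1 gene tested, the fibroblast list 2 and the endothelial list 0, so that the absence of calls in them carries no weight.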

How the data were processed

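Single CD45+ cells were sequenced with mCEL-Seq2. The authors deposited estimated counts: for every well and gene, the number of captured molecules worked out from molecular identifiers, per the labels' protocols, so values need not be whole. The deposited annotation gives other values, the class and cluster that the authors assigned to each well. BWA 0.6.2-r126 is named in the submitters' processing notes, while the sources used here do not give the genome build, the annotation or the counting program.

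Estimated counts of the annotated wells were summed per group and name prefix, which gave 2 sums a group and 6 in the fit, and rounded to whole numbers. The group and prefix of a well were read from its name. The authors' table of these wells has no gene names: its rows were named by values equal to those of the library tables, and the library of a well within its prefix, on which the sums do not depend, was found likewise. That table leaves out 276 genes, mitochondrial genes among them, which hold 38.9% of the transcripts of these wells, with a larger median share in microglia than in ciliary body wells. Library depth is given with the results. Sums passing edgeR's filter on low counts (4705 genes) were scaled by TMM and tested with edgeR 4.0.16 (robust quasi-likelihood test, R 4.3.3) with Benjamini-Hochberg adjustment at 0.05, two-sided. The script was tested on simulated data. Standard errors are from unshrunk fits. List medians use edgeR's fitted values. A gene at 0 in a group is given against a floor of 3 transcripts over that group, and one with 1 to 3 transcripts as a ratio with a 95% exact counting interval. Floors and intervals cover counting error only. Shares of wells are for wells thinned to 1000 transcripts, a depth that all 230 wells reached, as the exact expectation over draws, since single random draws differed by several percentage points.

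The members and the 41 gene lists were chosen with earlier results of these data known. In each direction the 12 genes with the largest change by edgeR's fitted value were named (passing the test, 50 CPM or more in the higher group, separate sums), besides up to 4 called members of each list with the smallest p, and a fixed set of marker genes, of which Folr2 and Lyz2 were not analysed here. Some genes that this rule names are not reported here. Other genes were named to complete a list after their values were seen. Thinning of whole sums used 1 random draw. Alternatives were DESeq2 1.42.0, other scalings and filters, other choices of wells, single libraries with and without a replicate block, and leaving out each sum. Libraries with the same number within a prefix did not deviate together (mean correlation 0.00443 over 8 pairs). The laser-treated retina was not used here.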

Additional observations from a re-analysis of the deposited data

Results flagged for a closer look

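In groups of 4 libraries, 3 values stood apart from the other 3 libraries of their group by Dixon's test at its 95% critical value, among 18 groups of quality values and 65 groups of gene levels examined. Chance alone picks about 1 in 20 groups. The median share of transcripts from genes left out of the table was lowest, at 45.1%, in library 1 of retina P2, and the next library had 57.5%. Sparc was highest in library 2 of ciliary body P4, at 333 CPM, and the next library had 118 CPM. Cd74 was highest in library 1 of ciliary body P3, at 25170 CPM, and the next library had 18674 CPM.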

How the results depend on the processing

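The 1372 calls between ciliary body macrophages and microglia became 846 with DESeq2, 705 of 1648 tested after thinning all sums to the smallest, and 2784 of 9317 tested over all passing wells of each compartment. Leaving out 1 sum gave 788 (without retina P2) to 1517 calls. Against the cornea, 167 calls became 55 with DESeq2, 66 after thinning, 309 without a filter on low counts, 3569 over all passing wells, and 109 to 357 when 1 sum was left out. In the settings with 1 sum in a group, that sum is assumed to vary like the other groups. Single libraries gave 1097 calls of 2206 genes tested, and 1077 with a replicate block on the library number, against the cornea 200 and 185. Without the filter 1379 of 18800 genes were called against microglia, 1007 of them higher. Of 136 called genes among the 142 named and tested, 44 lost their call with the direction kept in some setting, and 6 uncalled genes gained one (Hspa1a, C1qa, Jun, Ptprc, Adgre1 and Aif1). Over all passing wells 6 turned direction: Itgam (0.35), Fcgr3 (0.34), Tgfbr2 (0.018), Maf (0.25), Pfkp (-0.57) and Atp5b (-0.90), and the calls of 7 of 28 pathway and family lists changed their balance of higher and lower genes. The cause was not tested. With 2 sums a group and microglia sums of 64989 and 145628 transcripts, the number of transcripts limits the precision of low genes, and some with 0 in microglia were called all the same.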
